A study of Mus musculus with 6 samples.

Results

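Of the 56605 non-control probes on each array, 5008 (8.85%) carry as their only identity the accession of a cloned mouse cDNA, written as AK followed by digits. These AK probes were chosen by that accession alone, whatever their signal, and they stand for 4893 cDNAs. A single probe served 4779 of the cDNAs, 2 probes served each of 113, and 3 probes served 1. They were set against the 29937 probes designed on curated messenger RNAs (NM_ accessions) of the same arrays.

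Microglia serve as the immune cells resident in brain tissue. PGC-1α (gene Ppargc1a) is a coactivator that promotes transcription of mitochondrial genes. The study asked what overexpressed PGC-1α does to microglial transcripts after acute ischemic stroke (AIS), modelled by transient occlusion of the middle cerebral artery. The control arrays 1, 2 and 3 held microglia of PGC-1α f/f mice, which carry a loxP-flanked PGC-1α allele with an eGFP gene that Cre switches on. The mPGC-1α arrays 1, 2 and 3 held microglia of mice that had, besides that allele, a tamoxifen-inducible Cre under the Cx3cr1 promoter. Mice of both genotypes were given tamoxifen and had AIS, came from a C57BL/6 background, and were labelled as male and 10 weeks old. The cells were selected with an antibody to P2RY12, a surface receptor of microglia. Cx3cr1 is also active in monocytes and border macrophages, and the study let an interval pass between tamoxifen and the stroke so that the overexpression would be that of microglia. No label says whether a sample was 1 mouse or a pool, so p-values measure only the spread between these 6 samples, which may be technical.

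AK accessions were given to the mouse full-length cDNA collections, made by copying whole messenger-like RNAs from many tissues and reading clone after clone. Such collections hold protein-coding transcripts, alternative ends and splice forms of known genes, and many long RNAs with no clear protein product. Probes on them let an array see transcripts that curated gene catalogues had left out. A long non-coding RNA is typically made in fewer copies and in fewer cell types than a messenger RNA. The array files pair these probes with no gene name, description, sequence or position, and 0 of the 4893 accessions were found among the RefSeq transcripts or synonyms of the mouse gene table used here. RefSeq transcripts carry accessions of another form, so an AK number could have been found only among the synonyms. The 0 therefore does not show that the cDNAs lie outside known genes. The AK probes are therefore named below by cDNA accession and probe identifier, and no function can be given for any single one.

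Levels are given as log2 of the intensity minus that of the array's 75th percentile, so a level of 0 is the signal of a probe brighter than 75% of the others. Differences are mPGC-1α minus control, and 3 values in a row stand for arrays 1, 2 and 3 of a group in that order. Arrays 1 and 2 of each group lay on slide 1 and array 3 of each group on slide 2, where 3010 and 4931 spots were marked as outliers by the scanner software, against 549 to 1094 on the other 4. The defining microglia markers were well above background on all 6 arrays for 10 of 10 genes, with a summed level of 8.12 to 8.26 on control and 8.34 to 8.39 on mPGC-1α arrays. The neuron list was on for 7 of 8 genes on all 6 arrays (summed level 5.29 to 5.99 on control, 5.98 to 6.18 on mPGC-1α arrays), and all 8 genes were higher in the mPGC-1α group, with a median difference of 0.92. A summed level is set mainly by the brightest genes of a list. The neuron sum was mostly Snap25, at 5.22 to 5.94 on control and 5.89 to 6.10 on mPGC-1α arrays (difference 0.30). The other neuron genes lay between -5.10 (Gad1, control array 3) and 0.70 (Map2, mPGC-1α array 2). The oligodendrocyte list lay at 3.52 to 4.22 and 4.44 to 4.91 with 6 of 6 genes higher, and the astrocyte list at 2.97 to 3.23 and 3.22 to 4.16 with 6 of 6 higher. None of the defining markers of these 3 lists was at background on all arrays, and none passed the adjusted test. The neutrophil list lay at 6.60 to 7.23 on control and 6.28 to 7.31 on mPGC-1α arrays, with 1 gene higher and 5 lower. Monocyte and macrophage markers lay at 5.26 to 5.95 and 4.88 to 5.90, with 3 higher and 5 lower. In all these lists the counts by direction compare group means with outlier-marked spots kept. With marked spots left out, Ly6g (0.13) and Lyz2 (0.25) were higher, and Ly6c2 (-0.07) and Mrc1 (-0.18) lower. Each of these genes was counted above in the other direction. S100a8 and S100a9 had no fitted difference. Erythrocyte markers (5.09 to 6.53 and 5.57 to 6.54) had 2 higher and 0 lower, and endothelial ones (-0.34 to 0.86 and -0.34 to 0.01) 3 higher and 1 lower. The part of such cells in the values below was not tested, and in bulk RNA fewer cells of a type and less RNA per cell cannot be told apart. Ppargc1a itself differed by -0.31 (SE 0.24, limma adjusted p = 0.798) and was not higher in the mPGC-1α group. Genes of the sex chromosomes set control array 2 apart from the other 5 arrays. Xist, which is transcribed from an inactivated X chromosome, as in females, lay at -4.83 there and at -0.57 to -0.11 on the other 5 arrays, and 6 of 7 probes of Y-linked genes were well above background there against 1 or 2 elsewhere. By these genes control array 2 fits the male label and the other 5 arrays, of both genotypes, go against it. Results whose call rests on control array 2 are given with and without it.

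AK probes were seen less often than those for messenger RNAs on every array. The share of AK probes well above background was 69.7%, 72.2% and 53.1% in control, averaging 65.0% ± 10.4 (SD, n = 3). The mPGC-1α arrays had 72.0%, 67.3% and 50.8%, averaging 63.4% ± 11.2 (SD, n = 3). The groups overlapped, and an exact two-sided permutation test over the 6 arrays gave p = 0.6, where 3 against 3 cannot give less than 0.1. The arrays parted by slide, each of which held both genotypes. The AK share was 67.3% to 72.2% on the 4 arrays of slide 1 and 50.8% to 53.1% on the 2 arrays of slide 2. The dimmest level that counted as well above background was -6.74 to -6.32 on slide 1, and -5.23 and -4.96 on slide 2. The threshold thus differed by slide, as did the scan date, and their part in the shares was not tested.

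**Figure D1:**
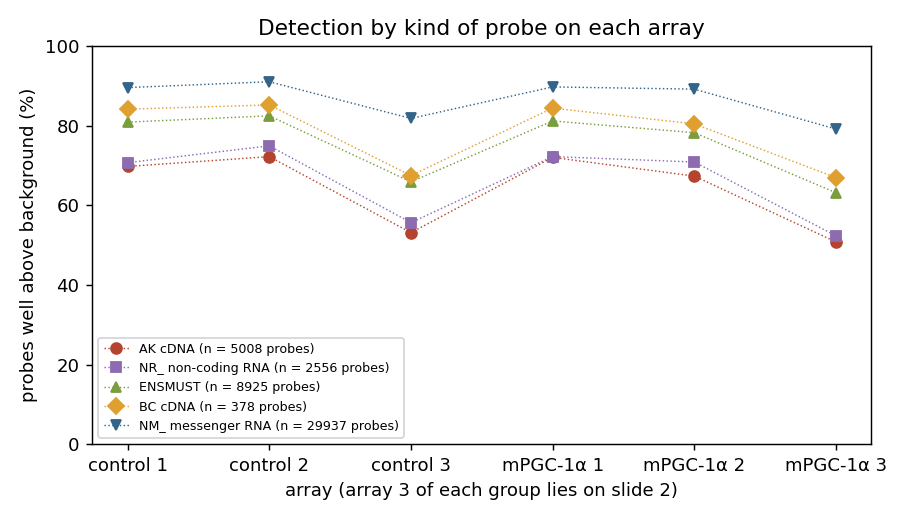
Share of probes with a signal well above background (%, vertical axis) on each of the 6 arrays (horizontal axis), with 1 symbol for each kind of probe; dotted lines only join symbols of a kind. The AK share lies 17.7 to 28.7 percentage points under the NM_ share on all 6 arrays and falls with the other kinds on array 3 of each group.

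NM_ probes were detected at a mean of 87.4% ± 4.95 on control and 86.0% ± 5.95 on mPGC-1α arrays (SD, n = 3 each). The kind of probe whose shares lay closest to those of the AK probes was the curated non-coding RNAs (NR_ accessions, 2556 probes), with means of 67.1% and 65.1%. Transcripts known from the Ensembl catalogue (8925 probes) reached 76.4% and 74.2%, and the BC accessions of another cDNA collection (378 probes) 78.9% and 77.2%. AK probes thus resembled annotated non-coding RNAs in detection more than they resembled messenger RNAs, as a description of these arrays and not of what the cDNAs encode.

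Taken probe by probe, 2410 AK probes (48.1%) were well above background on all 6 arrays and 1155 (23.1%) on none. Among NM_ probes these shares were 77.9% and 7.16%, and among NR_ probes 50.4% and 22.1%. The 1155 silent AK probes say only that no signal stood clear of background, not that a transcript was missing. A further 490 AK probes (9.78%) were on in all 4 arrays of slide 1 and off in both of slide 2, and only AK042611 (A_51_P496099) showed the reverse. The share of the first pattern was 7.41% over all probes and 10.4% among NR_ probes. The threshold lay higher on slide 2. On 1 array alone, 69 AK probes (1.38%) were on for control array 2 and 85 (1.70%) for mPGC-1α array 1, against 1 to 42 for each of the other 4. Over all probes these 2 shares were 1.27% and 0.726%.

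On-off differences between the genotypes were almost lacking. Only AK083404 (A_51_P516268) was well above background on all 3 control arrays and on no mPGC-1α array, and 0 AK probes showed the reverse. Over all probes 29 (0.0512%) had the first pattern and 1 the second. Its levels were -5.68, -6.25 and -3.49 in control and -6.75, -6.38 and -7.21 in mPGC-1α. Each control value was above every mPGC-1α value, but control array 3 alone lay far over the others. The dimmest levels that counted as well above background were -6.55, -6.32 and -4.96 on mPGC-1α arrays 1, 2 and 3. Set against their mean, the AK083404 control mean was 1.74-fold higher. That figure rests largely on control array 3 and is not a lower limit. The limma adjusted p of AK083404 was 0.686 (difference -1.64, SE 0.66).

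The AK probes were also dim. The median of the mean level over the 6 arrays was -4.62 for AK probes (quartiles -7.04 and -2.30) and -1.47 for NM_ probes (quartiles -4.02 and 0.76). Array by array the AK median lay between -4.79 and -4.37, a span far smaller than its distance from the NM_ median, which ran from -1.56 to -1.35. Although they are 8.85% of the probes, AK probes held 267 (2.67%) of the 10000 brightest places and 27 of the first 1000. Brightness also depends on a probe's sequence, so this order is one of signals and not of transcript numbers.

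**Figure D2:**
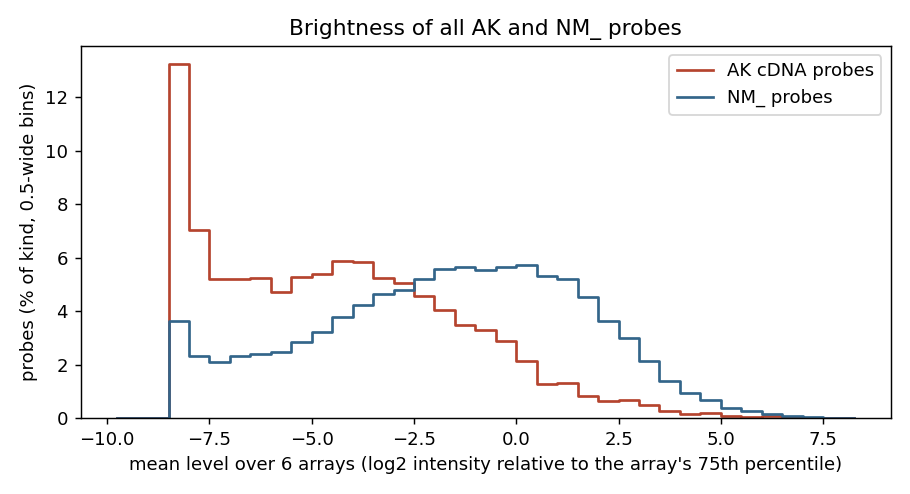
Distribution of the mean level over 6 arrays (log2 intensity relative to the array's 75th percentile, horizontal axis) as a percentage of each kind of probe in bins 0.5 wide (vertical axis). AK probes pile up at the dim end, where signals meet the background, and their median of -4.62 lies under the NM_ median of -1.47.

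A small set of AK probes ran against this and ranked with the brightest signals of the array, 7 of them among the first 100. AK158840 (A_55_P2048650) was second of all 56605 probes, with levels of 6.74, 7.63 and 7.68 in control and 7.64, 7.66 and 7.98 in mPGC-1α. Control array 1 was its lowest array, and the groups overlapped (difference 0.41, SE 0.25, limma adjusted p = 0.758). AK089156 (A_55_P2032755), at rank 12, gave 6.56, 7.38 and 7.26 against 7.36, 7.39 and 7.36, a difference of 0.31 (SE 0.22, limma adjusted p = 0.778). The next 5 were AK083777 (A_55_P2935461), AK149306 (A_55_P1972915), AK157058 (A_55_P2090782), AK138421 (A_55_P2169069) and AK079970 (A_55_P2301941), at ranks 44, 50, 67, 77 and 84. AK039034 (A_55_P2730238), AK140265 (A_55_P2735067) and AK008557 (A_55_P2168990) completed the 10 brightest, the last marked as an outlier on array 3 of both groups and fitted without those 2 spots. All 10 were lowest on control array 1, and their differences lay between 0.21 and 0.45. Without that array they lay between -0.02 and 0.30 for the 9 with a value, 1 of them below 0. With quantile normalization they lay between -0.13 and 0.16, 7 of the 10 below 0, so their direction depended on the scaling. Of these 10, AK138421 had the largest difference, with 5.93, 6.56 and 6.18 on control arrays and 6.77, 6.67 and 6.58 on mPGC-1α arrays (difference 0.45, SE 0.19, limma adjusted p = 0.690).

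The AK133410 probe (A_55_P2072315) was spotted 10 times per array and so shows how exact a single reading is. Its 10 spots varied within an array by an SD of 0.03 to 0.06, while its level was 0.02, 0.89 and 0.20 in control and 0.57, 0.69 and 0.29 in mPGC-1α. The spread between arrays of a group was thus many times that between spots of an array, and the genotypes overlapped (difference 0.15, SE 0.27, limma adjusted p = 0.921). Labelling and hybridization are part of the spread between arrays and not of that between spots. Over all tested AK probes the median residual SD within groups was 0.36, beside 0.39 for NM_ probes of like brightness.

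The question of the genotype comparison was which of these transcripts differed between mPGC-1α and control microglia. Enough signal for the test was present for 2725 AK probes (54.4%), of which 2615 had an unmarked value on all 6 arrays. The other 2283 were too dim or marked. With limma and Benjamini-Hochberg adjustment over all 40745 tested probes, 0 AK probes reached an adjusted p below 0.05, as did 0% of all probes, and the smallest adjusted p of an AK probe was 0.684. At an unadjusted p below 0.05 limma listed 145 AK probes (5.32%) against 7.17% of all tested probes. The statements on direction that follow describe levels on 6 arrays that passed no adjusted test.

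By a looser rule, an unadjusted p below 0.05 and at least a 2-fold difference, 26 AK probes (0.954%) were higher and 48 (1.76%) lower in the mPGC-1α group. Over all tested probes the shares were 0.785% higher and 3.06% lower. The AK share of higher probes was thus near the background and that of lower probes under it. The split moved with the scaling: with each array centred on the median of the tested probes there were 39 higher and 40 lower, with the percentile taken over unmarked spots 39 and 43, and 35 and 37 in the values normalized by the authors. Normexp background correction left 2 and 16. In the order of these settings AK probes had 1.43%, 1.43%, 1.28% and 0.0734% higher and 1.47%, 1.58%, 1.36% and 0.587% lower. All tested probes had 1.17%, 1.17%, 1.10% and 0.226% higher and 2.54%, 2.89%, 2.52% and 1.30% lower. Within each slide taken alone 47 of the 48 lower and 26 of the 26 higher AK probes had the same direction, which their choice on these 6 arrays largely fixes. The 2 genotypes did not overlap at all in 283 of the 2615 AK probes with 6 values (10.8%), where all tested probes gave 11.5%. By direction, 212 AK probes (8.11%) were higher and 71 (2.72%) lower without overlap, against 6.8% and 4.66% of all tested probes.

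At like brightness, the median difference of AK probes lay above that of NM_ probes by less than the spread between pairs of arrays. The median difference was 0.13 over tested AK probes and 0.0018 over NM_ probes weighted to the same brightness, a gap of 0.13, while all tested probes had a median of 0.083. Of the AK probes 67.2% had a difference above 0, against 50.3% of NM_ probes of like brightness. Taken pair by pair over same-numbered arrays, the gap was 0.27, -0.07 and 0.19 (SD 0.17, n = 3), so it was smaller than its spread between pairs and turned around in the second pair. With single arrays left out the gap ran from 0.06 (without mPGC-1α array 1) to 0.19 (without mPGC-1α array 2), and was 0.16 without control array 2. The AK median itself ran from 0.01 without control array 3, when 51.4% of AK probes were above 0, to 0.26 without control array 2.

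The larger contrast lay among probes lower in the mPGC-1α group: 1.76% of AK probes against 5.96% of NM_ probes of like brightness. Without control array 2 these shares were 3.77% and 11.2%. Higher probes made up 0.954% and 1.29% on all 6 arrays. In 4 equal groups of AK brightness from the dimmest to the brightest, the lower share was 3.23%, 1.17%, 1.47% and 1.17% for AK probes and 9.45%, 6.78%, 5.78% and 1.39% for NM_ probes, so the contrast was present in the 3 dimmer groups and small in the brightest. Much of it depended on which NM_ probes were set beside the AK probes. With the NM_ probes that are the only probe of their gene, the lower share at like brightness was 2.46% and the gap in medians 0.07. Probes are not replicates, so no p-value is given for these contrasts.

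**Figure D3:**
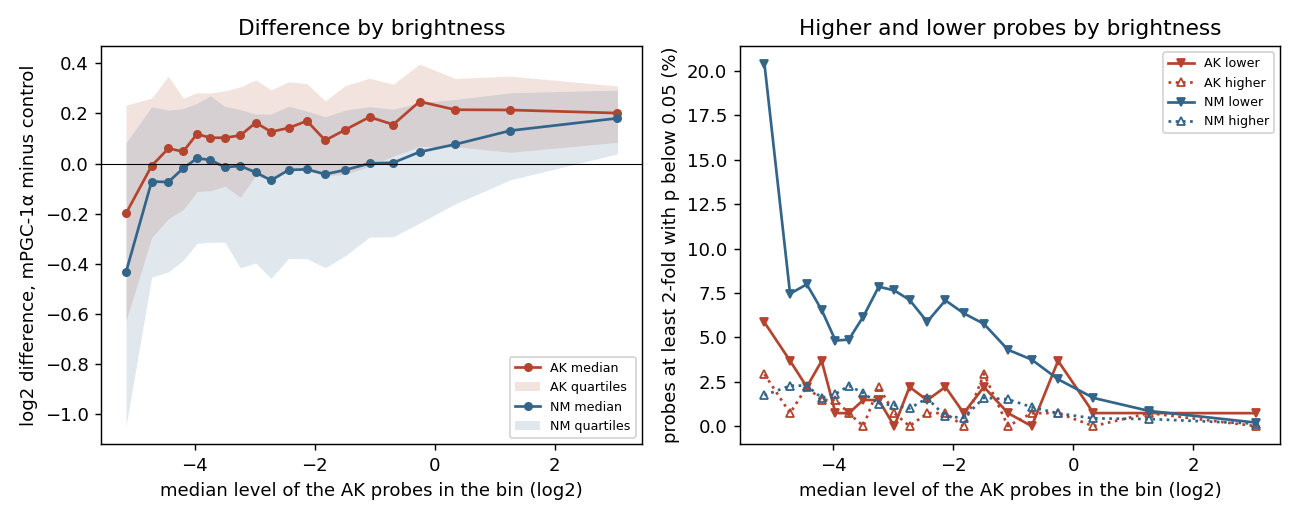
Left, median log2 difference (mPGC-1α minus control, vertical axis; shaded bands are quartiles over probes) against brightness for AK and NM_ probes in 20 bins with equal numbers of AK probes. Right, share of probes (%) higher or lower at least 2-fold with an unadjusted p below 0.05 in the same bins; the NM_ lower share exceeds the AK lower share in most of the dim bins, and the 2 meet at the bright end.

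Among AK probes higher in the mPGC-1α group, AK088506 (A_55_P2333126) had the smallest p. Its levels were -0.52, -0.99 and -0.51 in control and 0.57, 0.17 and 0.60 in mPGC-1α. Each mPGC-1α value lay above every control value, by at least 0.68, and the difference of 1.12 (SE 0.24, 2.17-fold) was alike on slides 1 and 2 (1.12 and 1.11). Its limma adjusted p was 0.684 on 6 arrays and 0.0391 without control array 2.

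AK036178 (A_52_P947394) had the largest difference among the 26 higher AK probes of the looser rule. It was at -5.69, -5.97 and -7.19 in control and at -3.16, -5.03 and -4.59 in mPGC-1α, a difference of 2.02 (SE 0.57, limma adjusted p = 0.684). The signal was dim throughout, well above background on 2 of 3 control arrays, and highest on mPGC-1α array 1. With normexp background correction the AK036178 difference was 0.62. AK020820 (A_52_P475052) was less dim than AK036178 (mean level -3.96 against -5.27) and well above background on all arrays. It varied little within groups, with -4.41, -4.41 and -4.67 against -3.29, -3.56 and -3.40 (difference 1.08, SE 0.29, limma adjusted p = 0.684). With normexp the AK020820 difference also shrank, to 0.49.

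The other 5 of the 8 were AK137931 (A_55_P2341890), AK032932 (A_55_P2211793), AK031453 (A_52_P955185), AK079228 (A_65_P20288) and AK031618 (A_52_P1163703), with differences from 1.03 to 1.15. AK137931 went from -2.27, -1.71 and -1.66 on control to -0.75, -1.10 and -0.65 on mPGC-1α arrays. AK079228 went from -2.27, -2.54 and -3.27 to -1.39, -1.66 and -1.59. In both, the lowest mPGC-1α array was above the highest control array, by 0.56 and 0.60. These 8 were drawn from 20 AK probes (0.765%) that were at least 2-fold higher without overlap, in order of p, a share that was 0.657% over all tested probes with 6 values. The exact permutation p of each is 0.1, the smallest possible, which their choice without overlap fixes. Their limma adjusted p was 0.684 throughout.

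**Figure D4:**
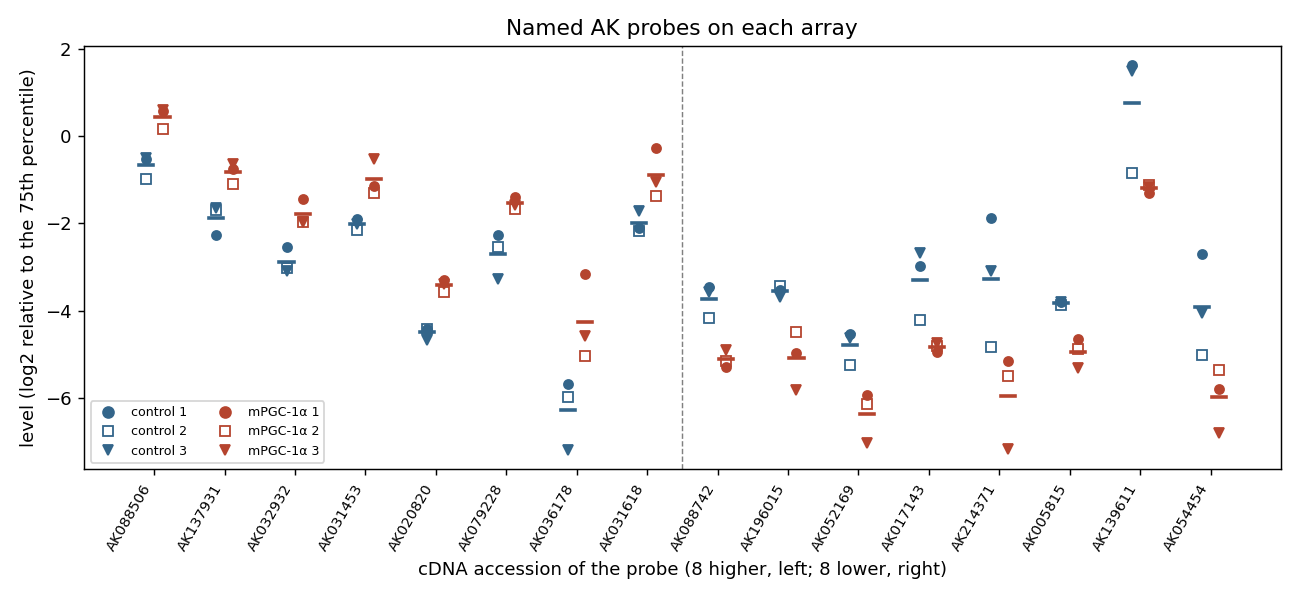
Level on each array (log2 intensity relative to the array's 75th percentile, vertical axis) of 8 AK probes higher and 8 lower in the mPGC-1α group (horizontal axis), blue for control and red for mPGC-1α arrays; symbols mark arrays 1, 2 and 3 and short bars the group means (n = 3). The groups do not overlap in any of the 16, which is part of how they were chosen, and for several lower probes control array 2 (open blue square) lies near the mPGC-1α arrays.

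Among AK probes lower in the mPGC-1α group, AK088742 (A_52_P180023) had the smallest p. It was at -3.45, -4.16 and -3.57 in control and at -5.28, -5.15 and -4.90 in mPGC-1α, a difference of -1.38 (SE 0.33, limma adjusted p = 0.684). Without control array 2 the AK088742 difference was -1.60 (limma adjusted p = 0.0230). AK088742 was well above background on 2 of 3 mPGC-1α arrays, and with normexp its difference was -0.51. AK196015 (A_55_P2740061) gave -3.52, -3.43 and -3.69 against -4.97, -4.49 and -5.82 (difference -1.55, SE 0.39, limma adjusted p = 0.684). In AK196015 the 3 control arrays were within 0.3 of each other on the log2 scale, and control array 2 was the highest of them. Its signal too was well above background on 2 of 3 mPGC-1α arrays, and with normexp the AK196015 difference was -0.55.

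Most lower probes looked otherwise. In 44 of the 48, control array 2 was the lowest of the control arrays, and in 38 it was closer to the mPGC-1α mean than to the mean of the other 2 control arrays. These counts were made for AK probes alone and do not set them apart from other probes. Without control array 2 the looser rule's lower share rose from 1.76% to 3.77% of AK probes and from 3.06% to 6.89% of all tested probes. AK139611 (A_65_P08125) is the plainest of the named lower probes: 1.62, -0.85 and 1.49 in control and -1.32, -1.12 and -1.17 in mPGC-1α. Control array 2 thus missed the mPGC-1α values by only 0.26, while the other 2 control arrays were far above. The AK139611 difference was -1.96 (SE 0.57, limma adjusted p = 0.684) with all arrays and -2.76 (limma adjusted p = 0.000531) without control array 2.

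AK214371 (A_55_P2740682) had the largest difference of the looser-rule AK probes on the main scale, and control array 2 was again the lowest control array. Its levels were -1.89, -4.84 and -3.10 in control and -5.16, -5.50 and -7.17 in mPGC-1α, a difference of -2.67 (SE 0.75, limma adjusted p = 0.684). It became -3.45 (limma adjusted p = 0.0219) without control array 2. The signal was well above background on 2 of 3 mPGC-1α arrays, and with normexp the AK214371 difference was -0.96, smaller than the -1.81 of AK139611. AK054454 (A_52_P780) ran in parallel, from -2.71, -5.01 and -4.06 to -5.79, -5.36 and -6.81 (difference -2.06, SE 0.60, limma adjusted p = 0.684). Without control array 2 the AK054454 difference was -2.60 (limma adjusted p = 0.0392). AK054454 was well above background on 2 of 3 mPGC-1α arrays, and with normexp its difference was -0.68. AK052169 (A_55_P1973183), AK017143 (A_52_P217492) and AK005815 (A_52_P421457) filled the 8, at -1.57, -1.55 and -1.12. With normexp these 3 were at -0.33, -0.70 and -0.46. AK052169 and AK005815 were well above background on 2 of 3 mPGC-1α arrays. Of these 3, AK017143 passed the adjusted test without control array 2, at -2.01 (limma adjusted p = 0.00608). The 8 were drawn in order of p from 25 AK probes (0.956%) at least 2-fold lower without overlap, where all such tested probes gave 1.58%. That choice again fixes the exact permutation p of each at 0.1.

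When the same-numbered arrays were treated as pairs, limma still called 0 AK probes, the smallest adjusted p being 0.124. The fit brought forward 4 AK probes not yet named. AK134484 (A_55_P2020080) was at 3.29, 1.01 and 3.06 in control and at 1.10, 0.36 and 0.71 in mPGC-1α. AK088963 (A_55_P2088692) was at 3.66, 1.37 and 3.43 against 1.50, 0.84 and 1.38. Array by array these 2 bright probes stepped together, high on control arrays 1 and 3 and low on the other 4, so that the groups overlapped in both. Their differences were -1.73 (SE 0.53) and -1.58 (SE 0.53), each with a limma adjusted p of 0.684 without the pairing and 0.124 with it. Without control array 2 they were -2.46 (limma adjusted p = 0.00134) for AK134484 and -2.31 (limma adjusted p = 0.00151) for AK088963.

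AK191498 (A_55_P2739971) showed the same array pattern at a lower level, with 0.92, -1.71 and -0.30 in control and -1.55, -2.64 and -1.52 in mPGC-1α (difference -1.54, SE 0.59, limma adjusted p = 0.685, paired 0.124). Without control array 2 the AK191498 difference was -2.22 (limma adjusted p = 0.0314). AK029220 (A_55_P1988388) went the other way, from 0.27, 1.01 and 0.42 to 1.24, 2.08 and 1.09. Each of its mPGC-1α arrays exceeded its same-numbered control array, although the groups were only 0.07 apart (difference 0.90, SE 0.31, limma adjusted p = 0.684, paired 0.132).

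With control array 2 left out, limma called 64 AK probes, 10 higher and 54 lower. All tested probes gave 0.356% higher and 4.99% lower in that fit, in which 2677 AK probes were tested. In 53 of the 54 lower ones control array 2 was nearer to the mPGC-1α mean than to the other controls. As these probes were called only with that array left out, their choice largely fixes this count. It was made for AK probes alone. Of the 64 called, 32 met the looser rule on 6 arrays. AK138829 (A_66_P108887) headed them with levels of -0.09, -4.07 and -0.28 in control and -3.84, -3.95 and -3.84 in mPGC-1α. Control array 2 was the lowest of all 6 for AK138829, under every mPGC-1α array. Its difference was -3.70 (limma adjusted p = 0.000501) without that array and -2.40 (SE 0.89, limma adjusted p = 0.684) with it.

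AK183750 (A_55_P2739634) followed, with 0.91, -2.49 and 0.99 in control and -2.34, -2.93 and -2.71 in mPGC-1α. AK182512 (A_55_P2739551) stood at -0.21, -3.35 and -0.28 against -3.22, -3.43 and -3.28. AK136146 (A_66_P129054) stood at 1.68, -1.01 and 1.82 against -0.83, -1.22 and -0.75. In these 3, as in AK138829, 4 arrays were low and alike, and the 2 high ones were control arrays 1 and 3. The differences of AK183750, AK182512 and AK136146 were -2.46, -2.03 and -1.76 on 6 arrays (limma adjusted p = 0.684 each) and -3.61, -3.06 and -2.68 without control array 2 (limma adjusted p = 0.000531, 0.000543 and 0.000759). The call without control array 2 rests on those 2 control arrays, and which control array is typical of PGC-1α f/f mice was not tested.

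The accession numbers, which run roughly in the order in which cDNAs were deposited, gave the AK probes a further division, made here after their values had been seen. Only 101 AK probes carry numbers of 180000 and over, and they were the brightest and most often seen, with a median level of -1.73 and 80 (79.2%) on in all 6 arrays. The 5 lower bands had median levels of -5.12 to -3.69 and 42.5% to 60.4% on in all 6. In the high band 11 of 88 tested probes (12.5%) were lower by the looser rule and 0 higher, with a median difference of -0.13. Over all tested probes the shares were 3.06% lower and 0.785% higher. Among NM_ probes in the brightness bins at -1.83 and -1.49, 6.36% and 5.76% were lower. The other bands had 0.531% to 2.02% lower and medians of 0.13 to 0.14. The band made up 3.23% of tested AK probes and 22.9% of the lower ones. Control array 2 was the lowest control array in 9 of those 11, and without it limma called 11 of 80 (13.75%) lower and 0 higher. In that fit 4.99% of all tested probes were called lower and 0.356% higher.

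The 5 probe series of the array, read from the start of the probe identifier, differed in detection. Of the A_52 probes 29.9% were on in all 6 arrays and 41.7% in none, against 66.7% and 8.48% of the A_65 probes. NM_ probes of the same series spanned a narrower range, 75.1% to 86.1% on in all 6. The AK lower share ran from 1.23% (A_66) to 2.67% (A_52), and in each of the 5 series it was under that of the NM_ probes, which ran from 2.27% to 7.14%.

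Where a cDNA had more than 1 probe, the probes could be set against each other. Of 116 such pairs, 36 had both probes tested, and their differences pointed the same way in 22 and opposite ways in 14. The gap between the differences of a pair had a median of 0.22.

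AK079255 was the only cDNA with both probes past 2-fold. Its probe A_55_P2935381 was at -4.79, -4.62 and -7.40 in control and at -0.78, -4.94 and -4.28 in mPGC-1α. Its probe A_55_P2935382 was at -3.84, -3.58 and -5.29 against 0.23, -3.82 and -3.33. Both AK079255 probes were high on mPGC-1α array 1 and low on control array 3, while the other 4 arrays overlapped. The differences of 2.27 (SE 1.07) and 1.93 (SE 0.94) had limma adjusted p of 0.708 and 0.715. The widest disagreement was in AK170747, whose probes A_51_P186265 and A_55_P2815120 differed by -0.72 (SE 0.53) and 0.53 (SE 0.29), with limma adjusted p of 0.787 and 0.733.

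**Figure D5:**
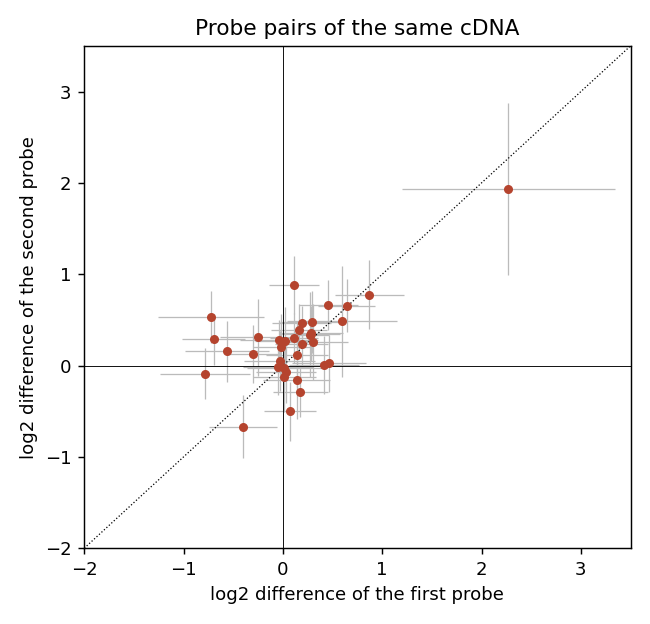
Log2 difference (mPGC-1α minus control) of the second probe of a cDNA (vertical axis) against that of the first (horizontal axis) for the 36 pairs with both probes tested; bars are standard errors and the dotted line marks equal differences. Most pairs lie near 0, 14 fall in the quadrants of opposite sign, and the AK079255 pair lies alone at 2.27 and 1.93.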

How the data were processed

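Microglial RNA of 3 PGC-1α f/f and 3 mPGC-1α samples was measured on single-colour Agilent arrays. Per the file headers the authors deposited Agilent Feature Extraction 11.5.1.1 output, in which each spot has an intensity that is already background-subtracted, on an array annotated to mm9. The labels name Cy3 and the labelling protocol Cy5, and the files hold 1 channel. The authors also deposited a log2 table of normalized values, used only as an alternative. It holds 3440 AK probes (68.7%) and 26461 NM_ probes (88.4%). Its column medians lie between 7.78 and 7.79, and its normalization is not given in the sources used here.

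Levels are log2 intensity minus the 75th percentile of the array over non-control probes, with all spots counted because the spots marked as outliers made up 5.88% to 48.3% of the brightest 10%. That percentile was 702 to 1179 intensity units and 0 spots were saturated. Marked spots were left out of the fits and spots of a probe averaged. Probes were tested where they were well above background on all unmarked arrays (at least 2) of a group. limma 3.58.1 (R 4.3.3) with an intensity trend was fitted to all tested probes, with Benjamini-Hochberg adjustment, and was first tested on simulated data. NM_ probes were weighted to the AK brightness in 20 bins. Tables were made with pandas 2.3.3.

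Named were 8 higher and 8 lower AK probes, in order of unadjusted p, among those measured on 6 arrays, at least 2-fold apart and without overlap (as none passed the adjusted test), the 10 brightest, and the 3 per direction with the smallest paired adjusted p. Probes named outside this rule (AK083404, AK042611, AK133410, AK079255, AK170747, AK138829, AK183750, AK182512 and AK136146) were chosen after their values were seen. The members, lists and tests were chosen with earlier results of these data known. Planned groupings by source library and by gene name were not run, as the files used here give no description or gene name for these probes.

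Whether replicate numbers pair the samples was checked by correlating each array's deviations from its group mean over 36995 probes. The correlation of same-numbered arrays was 0.247, 0.224 and 0.171, and that of others was -0.337 to 0.03. As each same-number value was above 0.1, a fit with these pairs (replicate block) was given as an alternative. The main fit compared the groups without pairs. The labels do not say what the numbers mean. Same-numbered arrays also shared a slide, and deviations from a group mean sum to 0, so the check is weak. The alternatives were quantile and normexp normalization (offset 50), the authors' table, other filters, marked spots kept, slide and replicate blocks, no intensity trend, other bins, and leaving out each array. Taking the percentile over unmarked spots, centring on the median, and the replicate block with unmarked or quantile scaling were added after seeing the data. Having only 3 arrays a group limits the precision.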

Additional observations from a re-analysis of the deposited data

How the results depend on the processing

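The gap between AK and NM_ median differences at like brightness stayed above 0 in all 22 alternatives, from 0.06 to 0.19, and the AK share of lower probes stayed under that of NM_ probes of like brightness in all 22. The count of 0 called AK probes became 64 without control array 2 (2.39% of AK probes against 5.35% of all tested probes). It became 77 with the replicate block when the percentile was taken over unmarked spots only (2.83% of AK probes against 4.22% of all tested probes), an alternative chosen after seeing the data. Over the leave-one-out fits it ran from 0 to 64. The replicate block in the planned scaling called 0 AK probes and 1 of all tested probes, and changed the call of no named AK probe. By the looser rule it gave 37 higher (1.36%) and 60 lower (2.20%) AK probes, against 1.02% and 4.09% of all tested probes. The 26 higher AK probes became 2 with normexp, 46 without a filter on dim probes, 17 when all 6 arrays had to be well above background, and 45 with the replicate block and the unmarked percentile. As shares these were 0.0734%, 0.92%, 0.740% and 1.65%, against 0.226%, 0.833%, 0.766% and 1.33% of all tested probes. Leaving out single arrays gave 9 to 62 (62 without control array 2, 9 without control array 3, 15, 51 and 55 without mPGC-1α arrays 1, 2 and 3). In that order the AK shares were 2.32%, 0.267%, 0.565%, 1.92% and 1.67%, against 1.62%, 0.492%, 0.713%, 0.871% and 1.75% of all tested probes. The 48 lower ones became 16 with normexp and 29 under the strict filter, and 21 to 101 when single arrays were left out (21 without control array 1, 101 without control array 2). For these 4 settings the AK shares were 0.587%, 1.26%, 0.785% and 3.77%, against 1.30%, 2.77%, 1.58% and 6.89% of all tested probes. The causes were not tested. AK detection by the scanner software's more lenient mark of a positive and significant signal was 80.9% on control and 79.6% on mPGC-1α arrays. Of 373 values of 20 named probes over 19 alternatives, 346 kept their side of the threshold and 27 passed it in the same direction, 18 of them with the replicate block and the unmarked percentile and 9 without control array 2. With 3 arrays per group and over 23% of AK probes at background, small differences of dim AK transcripts could not be seen.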
